A study of Homo sapiens with 6 samples.

Results

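SR proteins and hnRNPs are the families of RNA-binding proteins that act most broadly on splice site choice. Members were taken as all protein-coding genes whose symbol is *SRSF* followed by a number or starts with *HNRNP*, which gave 39 of the 67060 genes in the table, 12 SRSF genes and 27 HNRNP genes. All 12 SRSF genes and 20 of the 27 HNRNP genes had enough counts to be tested. The rule used names only and no measured value.

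RNA sequencing was done on SH-SY5Y cells, a human neuroblastoma line labelled as neuronal progenitor, grown in DMEM with serum. In 1 group the cells carried Ad CMV 3xFlag-*Esrrg*, an adenovirus that expresses the mouse coding sequence of estrogen-related receptor gamma (ERRγ) with a Flag tag from the CMV promoter, and in the control group they carried Ad CMV GFP. Cells of both groups received 0.5 ul of virus and were collected after 24 h, and the libraries were made from rRNA-depleted total RNA. The labels give 3 libraries per group, replicates 1, 3 and 4 for Ad CMV GFP and replicates 2, 3 and 4 for Ad CMV 3xFlag-*Esrrg*. The labels do not say that these came from separate cultures, so p-values measure the spread between these libraries only, and there were no uninfected cells to show what the virus itself does.

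SR proteins bind purine-rich and other enhancer sequences in exons through RNA recognition motifs, and their arginine- and serine-rich domains recruit the U1 and U2 particles of the spliceosome. hnRNPs coat nascent RNA, often act as silencers of nearby exons, and also work in RNA export, stability and translation. Many genes of both families limit their own protein by splicing in a premature stop codon, so that the transcript is degraded by nonsense-mediated decay. The annotation lists at least 1 such transcript for all 12 SRSF genes (100%), for 15 of the 27 HNRNP genes (55.6%) and for 45.9% of the tested protein-coding genes. The counts are per gene, so that productive and degraded transcripts of a member are summed here.

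Reads on genes numbered from 24969759 to 29700980 in the Ad CMV GFP libraries and were 26513620, 39723262 and 40859666 in replicates 2, 3 and 4 of Ad CMV 3xFlag-*Esrrg*. The human gene *ESRRG* was counted at 87.0 ± 3.40 counts per 1000000 (CPM, scaled by the TMM method, SD, n = 3) in Ad CMV GFP cells and at 707 ± 119 CPM in Ad CMV 3xFlag-*Esrrg* cells (log2 fold change 3.02 ± 0.14 SE, edgeR quasi-likelihood test, adjusted p = 6.3e-07). Reads were aligned to the human genome while the virus carries the mouse sequence, so these counts may mix reads of both. How many came from either was not tested. Replicate 2 of Ad CMV 3xFlag-*Esrrg* stood apart from replicates 3 and 4. It held 15228 *ESRRG* counts, against 25994 and 26497 in those, from the smaller total of reads given above. Reads outside annotated genes made up 46.6% of its entries, 31.6% and 29.5% of those of replicates 3 and 4, and 51.3 to 52.2% in Ad CMV GFP. That share differed between the groups without overlap and cannot be told apart from the virus group in the values below. Of 8 markers of sympathoadrenal neuroblastoma 6 were tested and *TH* and *CHGA* were listed at 0 in every library, while *COL3A1*, a collagen gene of mesenchymal cells, stood at 2602 ± 42.6 CPM and 2536 ± 94.2 CPM. Fewer cells of one kind and less RNA per cell cannot be told apart in such bulk samples.

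A gene was called when its Benjamini-Hochberg adjusted p over all 24500 tested genes was below 0.05 and its fold change at least 1.5. Ad CMV 3xFlag-*Esrrg* cells had higher counts of 2 SRSF genes, *SRSF2* and *SRSF9*, and of 6 HNRNP genes, *HNRNPAB*, *HNRNPC*, *HNRNPD*, *HNRNPF*, *HNRNPM* and *HNRNPUL1*. These 8 of 32 tested members (25%) stand beside 25.9% of the tested protein-coding genes and 17.3% of all tested genes called higher, so the share in the families was near the background. No member was called lower by edgeR, against 12.4% of the protein-coding genes and 16.8% of all tested genes, and DESeq2 called 0 lower as well. At an unadjusted p below 0.05 with no limit on the fold, 2 SRSF genes (*SRSF11* and *SRSF12*) and 0 HNRNP genes were lower. With the limit on the fold left out, 5 SRSF genes were higher and 2 lower, and 9 HNRNP genes were higher, beside 37.6% of the protein-coding genes higher and 22.4% lower. The values of the libraries of the 2 groups did not overlap for 17 members on the higher side and 4 on the lower side, while 41.9% and 28.4% of the protein-coding genes did so.

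**Figure D1:**
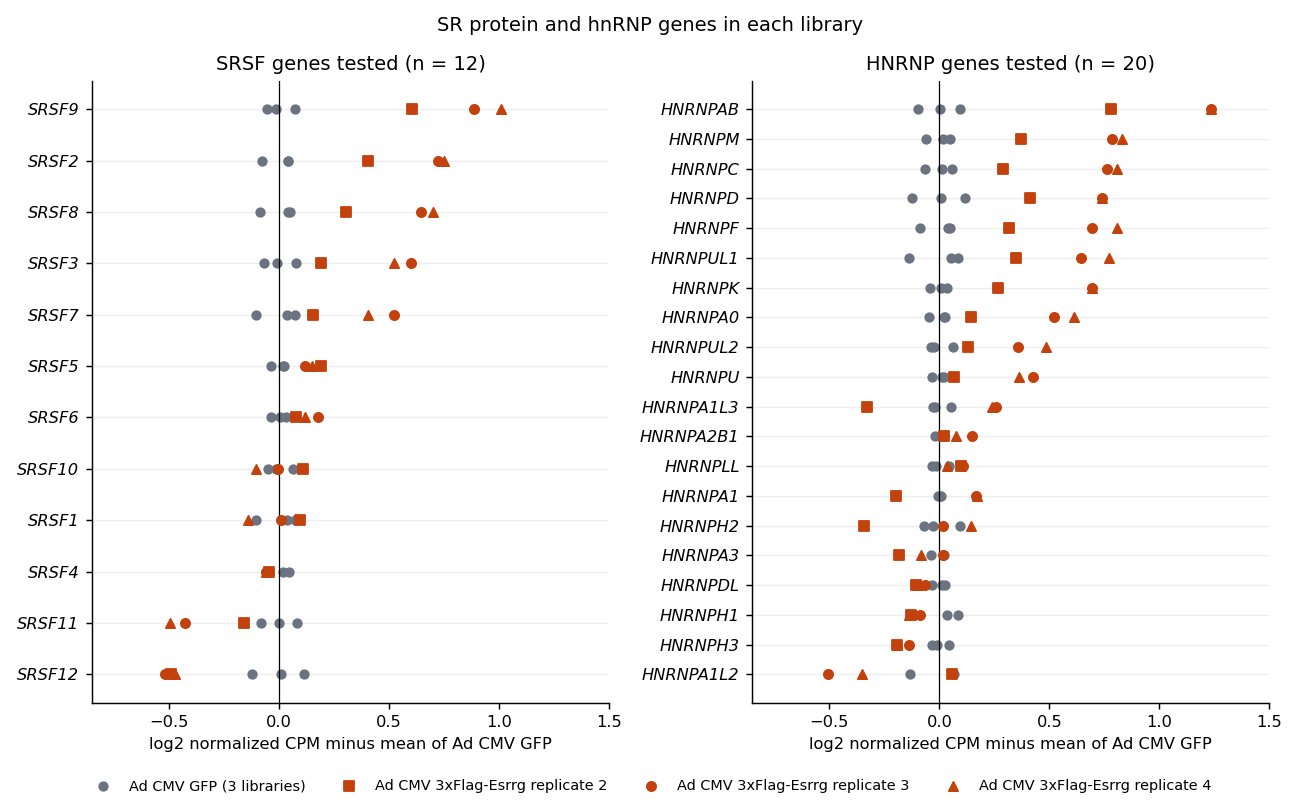
Level of each tested member in each library, as log2 CPM minus the mean of the 3 Ad CMV GFP libraries, with SRSF genes on the left and HNRNP genes on the right. For *HNRNPAB* and *SRSF9* all 3 libraries of Ad CMV 3xFlag-*Esrrg* lie more than 0.60 above the control mean, and for the members with the larger shifts upward replicate 2 (squares) lies closer to the controls than replicates 3 and 4.

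The largest fold change of either family belonged to *HNRNPAB*, which encodes a protein that binds AU-rich sequences and accompanies mRNA in the cytoplasm. Its level was 119, 136 and 128 CPM in the 3 Ad CMV GFP libraries and 219, 299.8 and 299.8 CPM in replicates 2, 3 and 4 of Ad CMV 3xFlag-*Esrrg*. The groups did not overlap, and replicate 2 was the lowest of the second group. The fold change was 2.14 (log2 1.10 ± 0.13 SE, edgeR adjusted p = 1.4e-04), above that of 91.1% of the tested protein-coding genes. It was the single member that stayed called under all 16 alternative fits, with log2 fold changes from 0.63 to 1.34.

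*SRSF9*, a small SR protein closely related to the founding member *SRSF1*, had the largest change among the SRSF genes. It was measured at 52.3, 55.4 and 50.8 CPM in Ad CMV GFP cells and at 80.3, 97.6 and 106 CPM in Ad CMV 3xFlag-*Esrrg* cells. All 3 values of the second group lay above the first, again with replicate 2 nearest to it. The log2 fold change was 0.84 ± 0.11 SE (edgeR adjusted p = 2.4e-04). The annotated exons of *SRSF9* share 43.6% of their bases with the opposite-strand gene *GATC* (log2 fold change 0.58 ± 0.12 SE, edgeR adjusted p = 0.0028), and the strand setting of the counting is not given in the sources used here.

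The promoters of these genes were looked at because ERRγ binds a known DNA element, the extended half-site TNAAGGTCA. It was searched on both strands of the RefSeq promoters (GRCh38.p14), which cover 250 bases before and 50 bases after each start, and it contains the shorter word AAGGTCA. RefSeq promoters were at hand for 35 of the 39 members, with none for *SRSF2*, *HNRNPA1*, *HNRNPA1L3* and *HNRNPCL3*. Among these 35, which have 49 promoters, only *SRSF8* held the full word, as did 0.951% of 35116 promoters of all genes. Members are counted here per gene and the background per promoter. The shorter word was held by *SRSF8*, *HNRNPCL1* and *HNRNPCL2*, and by 3.92% of all promoters. Capitals mark the match in the promoter of *SRSF8*, 55 bases before the start and read on the minus strand. The promoters of *HNRNPAB* and *SRSF9*, the members with the largest fold changes, are shown beside it and held no match. A match is a description of letters and not evidence of binding.
SRSF8 (chr11:95066627-95066926, plus strand): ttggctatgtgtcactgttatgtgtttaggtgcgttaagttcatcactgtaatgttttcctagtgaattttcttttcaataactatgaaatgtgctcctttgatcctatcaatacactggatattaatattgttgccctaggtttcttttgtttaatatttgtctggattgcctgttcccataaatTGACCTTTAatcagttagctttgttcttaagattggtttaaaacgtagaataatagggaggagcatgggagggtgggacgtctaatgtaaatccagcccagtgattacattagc
HNRNPAB (chr5:178204283-178204582, plus strand): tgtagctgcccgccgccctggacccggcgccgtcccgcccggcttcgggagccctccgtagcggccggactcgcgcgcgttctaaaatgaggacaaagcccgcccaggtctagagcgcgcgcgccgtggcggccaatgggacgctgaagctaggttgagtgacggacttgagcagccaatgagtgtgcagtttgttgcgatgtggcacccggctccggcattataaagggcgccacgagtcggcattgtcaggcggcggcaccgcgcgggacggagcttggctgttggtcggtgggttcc
SRSF9 (chr12:120469699-120469998, minus strand): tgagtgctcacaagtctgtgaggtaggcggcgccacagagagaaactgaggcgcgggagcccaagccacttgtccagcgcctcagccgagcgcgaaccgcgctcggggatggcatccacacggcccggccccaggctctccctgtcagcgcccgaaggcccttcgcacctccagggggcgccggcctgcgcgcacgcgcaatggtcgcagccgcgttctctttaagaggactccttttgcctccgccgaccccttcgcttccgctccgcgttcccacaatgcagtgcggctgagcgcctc
The *SRSF8* promoter held 36% G and C, against 67.3% for *HNRNPAB* and 68.3% for *SRSF9*.

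Among the SR proteins, *SRSF1*, the founding member that activates many exons and also serves in mRNA export and translation, was near the same level in both groups. It stood at 110 ± 6.96 CPM (SD, n = 3) in Ad CMV GFP cells and 109 ± 8.93 CPM in Ad CMV 3xFlag-*Esrrg* cells, with overlapping groups. The same-strand gene ENSG00000266086, listed at 0 in every library, shares 32.7% of the exon bases of *SRSF1*, so its counts may be incomplete. *SRSF2* (SC35), a nuclear SR protein that marks splicing speckles, was measured at 95.5, 104 and 104 CPM in the controls and at 134, 166 and 169 CPM with the receptor. Its groups did not overlap (log2 fold change 0.63 ± 0.11 SE, edgeR adjusted p = 0.001). Without replicate 4 of Ad CMV 3xFlag-*Esrrg* it was 0.58, just under the limit of 0.585 that 1.5-fold sets. The opposite-strand gene *MFSD11* (log2 fold change 0.06) shares 27.7% of the exon bases of *SRSF2*. *SRSF8*, which arose as a retrocopy of *SRSF2*, gave 39.7, 43.3 and 43.6 CPM against 52.1, 66.0 and 68.4 CPM, also with no overlap. Its log2 fold change of 0.56 ± 0.12 SE (edgeR adjusted p = 0.0026) fell short of the limit, which it passed without replicate 2 of Ad CMV 3xFlag-*Esrrg* (0.78) and without replicate 4 of Ad CMV GFP (0.59). With all 6 libraries it was called higher by DESeq2 (0.64, adjusted p = 1.3e-04), with RLE factors (0.64) and with a replicate block (0.63).

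*SRSF3* and *SRSF7* are SR proteins that shuttle out of the nucleus and hand mRNA to the export receptor NXF1. *SRSF3* stood at 233, 242 and 257 CPM in the controls and at 278, 369.9 and 349.9 CPM in Ad CMV 3xFlag-*Esrrg* cells. The groups did not overlap, replicate 2 lay between the controls and the other two, and the log2 fold change of 0.45 ± 0.12 SE became 0.67, and a call, without that library. *SRSF7* gave 84.7, 93.4 and 95.8 CPM against 102, 131 and 121 CPM (log2 fold change 0.37 ± 0.11 SE, edgeR adjusted p = 0.02, under the 1.5-fold limit). *SRSF4*, *SRSF5* and *SRSF6*, SR proteins with a pair of RNA recognition motifs and long arginine- and serine-rich tails, gave log2 fold changes of -0.06, 0.15 and 0.12, none called.

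*SRSF10* and *SRSF12* are the SR proteins best known as repressors, and *SRSF10* is activated when it loses phosphate during heat shock. *SRSF10* was level at 146 ± 5.92 and 146 ± 10.9 CPM. *SRSF12*, the scarcest of the tested SRSF genes, stood at 11.1, 11.9 and 10.1 CPM in the controls and at 7.82, 7.66 and 7.92 CPM with the receptor. All 3 values of the second group were lower and close together (log2 fold change -0.50 ± 0.12 SE, edgeR adjusted p = 0.0055), but the change was below 1.5-fold. *SRSF11*, which differs most from the canonical SR proteins, gave 219, 232 and 207 CPM against 196, 163 and 155 CPM, without overlap (log2 fold change -0.36 ± 0.11 SE, edgeR adjusted p = 0.024, not called). The value of *SRSF11* was -0.11 (adjusted p = 0.25) once counts were corrected for GC content and length, and -0.065 (adjusted p = 0.73) with the fraction of entries off annotated genes as a covariate. That of *SRSF12* was -0.30 and -0.51 (adjusted p = 0.039 and 0.042).

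**Figure D2:**
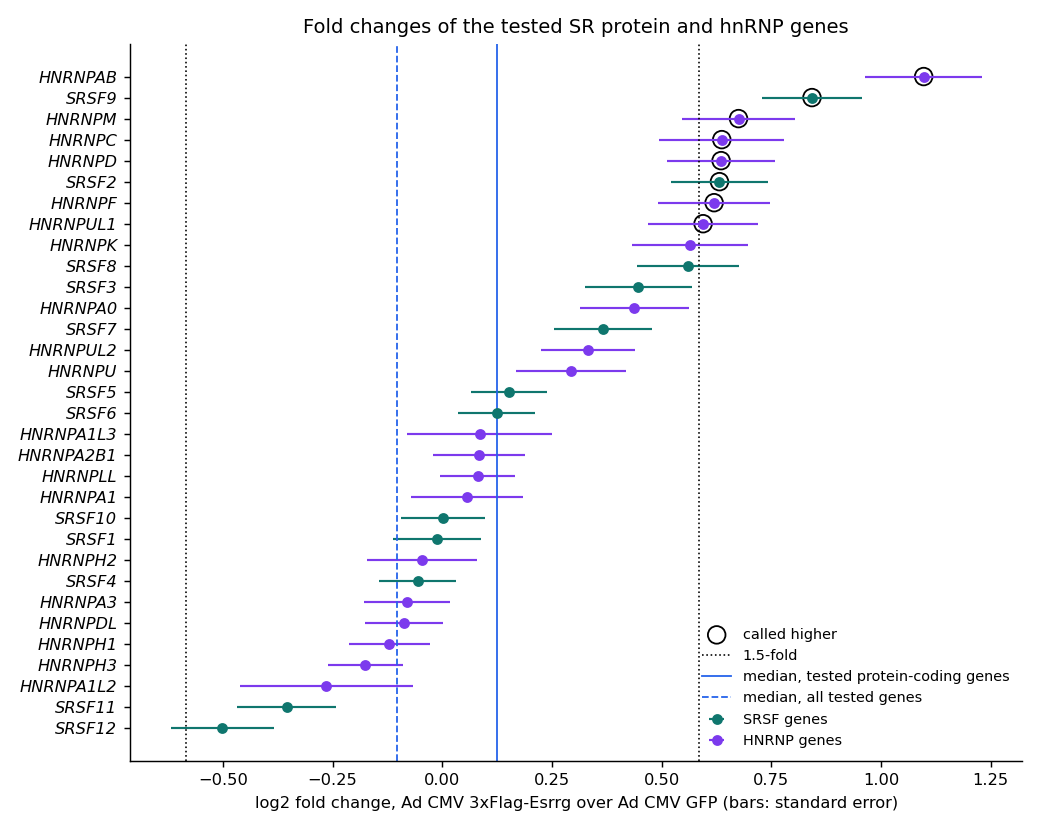
Log2 fold changes of the 32 tested members with their standard errors, SRSF genes in green and HNRNP genes in violet. Rings mark the 8 genes called higher, dotted lines the 1.5-fold limits and blue lines the medians of all tested genes (-0.10) and of the tested protein-coding genes (0.12); the members spread on both sides of these medians.

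The A/B group of hnRNPs is the most abundant and includes *HNRNPA1*, the silencer of many exons that opposes *SRSF1*. *HNRNPA1* stood at 959, 968 and 965 CPM in the controls, and at 840, 1081 and 1085 CPM in replicates 2, 3 and 4 of Ad CMV 3xFlag-*Esrrg*. Replicate 2 lay below all controls and the other two above them (log2 fold change 0.06 ± 0.13 SE). *HNRNPA2B1* and *HNRNPA3*, its close relatives, gave log2 fold changes of 0.08 and -0.08 with overlapping groups. *HNRNPA0*, an intronless member that binds AU-rich mRNA, gave 153, 160.4 and 160.7 CPM against 174, 226 and 241 CPM without overlap (log2 fold change 0.44 ± 0.12 SE, edgeR adjusted p = 0.014, below the limit, and 0.67 and called without replicate 2). The opposite-strand gene *NFE2L2* shares 53.6% of the exon bases of *HNRNPA3*, and its own log2 fold change was -0.43. *HNRNPA1L2* and *HNRNPA1L3*, copies derived from *HNRNPA1*, held 76 to 112 and 153 to 290 counts per library, and 73.3% and 60.5% of their 31-base words also occur elsewhere on the primary chromosomes, so their counts are uncertain.

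The annotation names 74 pseudogenes of *HNRNPA1*, which share much of its sequence. Their summed counts were 6.13, 6.13 and 6.17% of those of *HNRNPA1* in the controls and 7.34, 3.50 and 3.26% in replicates 2, 3 and 4 of Ad CMV 3xFlag-*Esrrg*. Replicate 2 lay above the controls and the other two below. Over all members, 134 pseudogenes were annotated and 40 were tested, of which 1 was called higher and 10 lower (median log2 fold change -0.55). All 3149 tested pseudogenes gave 153 higher, 697 lower and a median of -0.41.

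*HNRNPD* (AUF1), which binds AU-rich elements and guides mRNA decay, and *HNRNPDL*, its close relative, lie next to each other on chromosome 4. *HNRNPD* was measured at 301, 355 and 329 CPM in the controls and at 436, 548 and 547 CPM with the receptor, without overlap (log2 fold change 0.64 ± 0.12 SE, edgeR adjusted p = 0.0018). Without replicate 1 of Ad CMV GFP, the lowest control, it was 0.58 and not called. *HNRNPDL* gave 207, 209 and 201 CPM against 191, 197 and 192 CPM (log2 fold change -0.09 ± 0.09 SE, not called).

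*HNRNPC* forms the tetramer that measures the length of nascent RNA and covers uridine tracts. It stood at 501, 528 and 545 CPM in the controls and at 640.1, 889 and 917 CPM in Ad CMV 3xFlag-*Esrrg* cells, again with replicate 2 between the controls and the other two. The log2 fold change was 0.64 ± 0.14 SE (edgeR adjusted p = 0.0042), and it fell under the limit without replicate 3 (0.58) or replicate 4 (0.55) of Ad CMV 3xFlag-*Esrrg*. *HNRNPK*, which binds poly(C) stretches, gave 478, 494 and 504 CPM against 591, 796 and 795 CPM. No value overlapped, and the log2 fold change of 0.56 ± 0.13 SE (edgeR adjusted p = 0.0052) was just short of a call, which was reached without replicate 2 of Ad CMV 3xFlag-*Esrrg* (0.80) or replicate 4 of Ad CMV GFP (0.59). DESeq2 also called it higher (0.65, adjusted p = 1.4e-04).

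*HNRNPF*, *HNRNPH1*, *HNRNPH2* and *HNRNPH3* encode the group that binds runs of G. *HNRNPF* alone was called, with 151, 165 and 165 CPM in the controls and 199.7, 259 and 280.0 CPM with the receptor (log2 fold change 0.62 ± 0.13 SE, edgeR adjusted p = 0.0027). The groups did not overlap, but the call was lost without replicate 1 of Ad CMV GFP (0.58) and without replicate 4 of Ad CMV 3xFlag-*Esrrg* (0.53). The 3 *HNRNPH* genes gave log2 fold changes of -0.12, -0.05 and -0.18, in the order named, with adjusted p of 0.12 or more.

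*HNRNPM*, a regulator of exons in epithelial and mesenchymal programs, was measured at 205, 222 and 217 CPM in the controls and at 277, 369.5 and 381 CPM with the receptor. The groups did not overlap (log2 fold change 0.68 ± 0.13 SE, edgeR adjusted p = 0.0017), and the call held with any single library left out. *HNRNPU* (SAF-A), which binds chromatin-associated RNA, gave 938, 931 and 904 CPM against 967, 1243 and 1189 CPM (log2 fold change 0.29 ± 0.12 SE, adjusted p = 0.075). Of its relatives, *HNRNPUL1* gave 197, 229 and 225 CPM against 276, 338 and 369 CPM and was called (log2 fold change 0.59 ± 0.13 SE, edgeR adjusted p = 0.003), and *HNRNPUL2* gave 0.33 ± 0.11 SE and was not called. The call of *HNRNPUL1* was the least stable of the 8, kept in 7 of 16 alternative fits and lost without replicate 1 of Ad CMV GFP (0.53) or replicate 3 (0.58) or 4 (0.51) of Ad CMV 3xFlag-*Esrrg*. *HNRNPLL*, the regulator of *PTPRC* splicing in lymphocytes, gave 0.08 ± 0.09 SE.

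Of the 7 HNRNP genes that were not tested, 5 (*HNRNPCL1*, *HNRNPCL2*, *HNRNPCL3*, *HNRNPCL4* and the readthrough gene *HNRNPUL2-BSCL2*) had 0 counts in every library. The other two are genes that most cells use. *HNRNPL*, which binds CA repeats, held 0 counts in 5 libraries and 1 count in replicate 4 of Ad CMV 3xFlag-*Esrrg*, while its paralog *HNRNPLL* held 2207 to 2873 counts. *HNRNPL* lies inside a run of 17 protein-coding genes on chromosome 19 (38619082 to 38975742, GRCh38), from *EIF3K* to *FBXO17* and including *ACTN4* and *SARS2*, none with more than 4 counts in any library, and 13 of them were at 0 in all. *HNRNPR*, a neuronal mRNA-binding protein related to *SYNCRIP*, held 0 counts in 4 libraries and 3 and 4 counts in replicates 3 and 4 of Ad CMV 3xFlag-*Esrrg*. It opens a run of 6 such genes on chromosome 1 (23303771 to 23559501) that ends at *ID3*, and the next gene, *RPL11*, held 13141 to 26041 counts. Reads did fall on the tested pseudogene of *HNRNPR*, with 114 to 185 counts per library. Words of 31 bases from *HNRNPL* and *HNRNPR* occurred in the 261 alternate contigs of the reference at 0.0823% and 0.0483%. For *HNRNPCL2*, *HNRNPCL3* and *HNRNPCL4* 96.3 to 97.4% of the words occurred there. Patches, unplaced scaffolds and other contigs outside the primary chromosomes were not searched. The cause of the zeros was not tested, and a value of 0 or near 0 is given here for *HNRNPL* and *HNRNPR* only as listed, with no fold.

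Levels of different members were compared per kilobase of annotated exon. On that scale *HNRNPA1* led both families at 144 ± 0.701 CPM per kilobase in the controls and 149.6 ± 21.007 with the receptor, followed in the controls by *HNRNPK* at 86.3 ± 2.35, *HNRNPC* at 71.9 ± 3.06, *HNRNPA2B1* at 69.2 ± 1.01 and *HNRNPAB* at 60.2 ± 4.02. *HNRNPC* and *HNRNPA2B1* differed by less than the SD of *HNRNPC*. In Ad CMV 3xFlag-*Esrrg* cells *HNRNPAB* reached 129 ± 22.031, and *HNRNPK* and *HNRNPC* 128 ± 20.7 and 112 ± 20.9, which differ by less than their SDs. *SRSF3* (34.3 ± 1.75) and *SRSF2* (33.9 ± 1.58) headed the SRSF genes in the controls and did not differ beyond their spread, and *SRSF12* was last at 2.44 ± 0.200. Exon lengths sum all annotated transcripts, which lowers these values for genes with many of them.

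The sum over the 12 SRSF genes was 237 ± 5.31 CPM per kilobase in the controls and 287 ± 17.7 with the receptor, 1.21 times as much. That of the HNRNP genes was 832 ± 16.1 and 1094 ± 146, 1.31 times as much, with 926, 1172 and 1183 in replicates 2, 3 and 4. All libraries with the receptor lay above all controls in both sums. With the library size as the only scaling the SRSF sum was 0.970 times and the HNRNP sum 1.05 times that of the controls, so the direction of the SRSF sum turned with the scaling. Within the HNRNP sum *HNRNPA1* made up 17.3% ± 0.253 in the controls and 13.7% ± 0.119 with the receptor, and *HNRNPAB* 7.23% ± 0.353 and 11.7% ± 0.495. Within the SRSF sum *SRSF2* made up 14.3% ± 0.351 and 18.3% ± 1.29, *SRSF9* 5.65% ± 0.248 and 8.32% ± 0.766 and *SRSF11* 10.9% ± 0.635 and 7.11% ± 1.37. For each of these 5 genes the libraries of the groups did not overlap. Such shares do not depend on how the libraries were scaled.

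**Figure D3:**
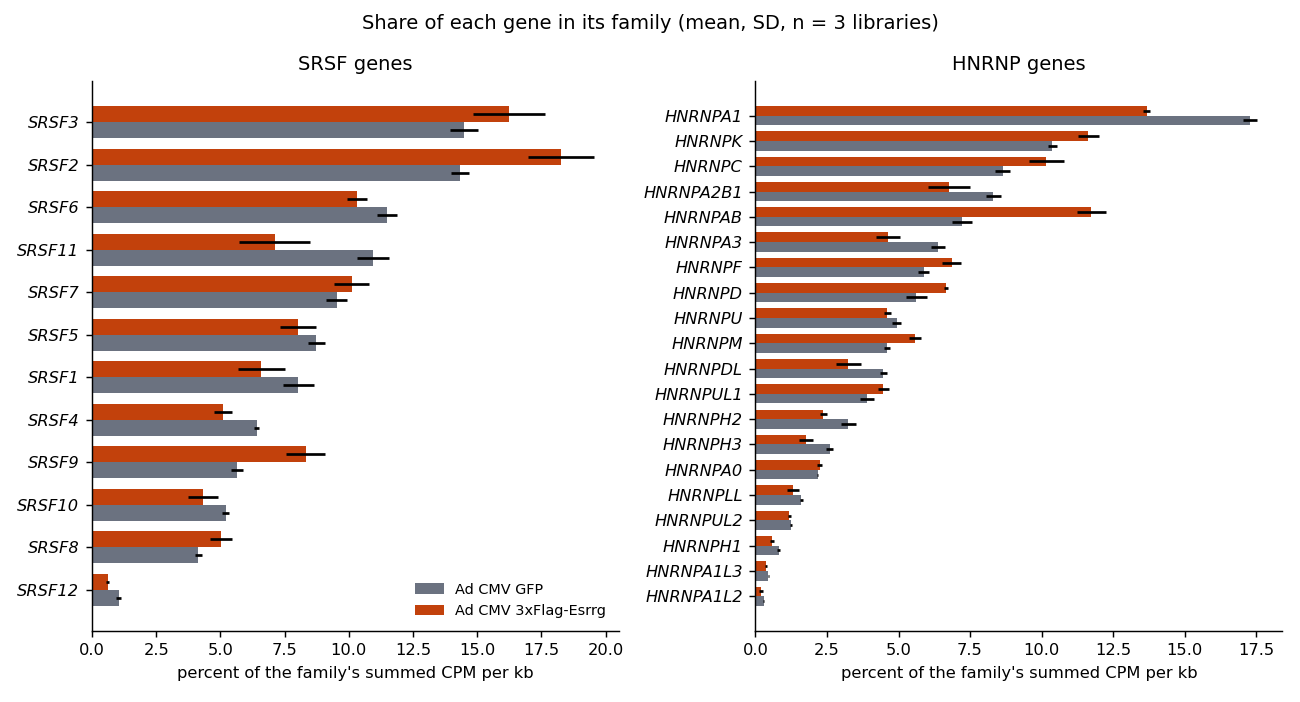
Share of each gene in the summed CPM per kilobase of its family, as mean and SD of 3 libraries, gray for Ad CMV GFP and orange for Ad CMV 3xFlag-*Esrrg*. *HNRNPAB* made up 7.23% and 11.7% and *HNRNPA1* 17.3% and 13.7% of the HNRNP sum, and *SRSF9* 5.65% and 8.32% of the SRSF sum.

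Close relatives were compared directly as the log2 ratio of their counts in the same library, which no scaling of whole libraries can shift. A correction for GC content and length acts on each gene and can shift it. *HNRNPAB* over *HNRNPDL* stood at -0.69 ± 0.10 (SD, n = 3) in the controls and at 0.48 ± 0.25 with the receptor, a difference of 1.17. *SRSF9* over *SRSF1* stood at -1.05 ± 0.16 and -0.21 ± 0.32. Both genes share exon bases with other genes, 46.7% for *SRSF9* and 35.1% for *SRSF1*. *HNRNPF* over *HNRNPH1* stood at 1.33 ± 0.15 and 2.06 ± 0.25. In these 3 pairs no library of one group overlapped the other. *HNRNPD* over *HNRNPDL* was 0.72 higher with the receptor and *SRSF10* over *SRSF12* 0.50 higher, likewise without overlap. *HNRNPH3* over *HNRNPF* stood at -0.47 ± 0.11 and -1.25 ± 0.25, also without overlap. The ratios of *HNRNPA0* to *HNRNPA1*, *HNRNPUL1* to *HNRNPU*, *SRSF5* to *SRSF4* and *SRSF6* to *SRSF4* were higher by 0.38, 0.30, 0.21 and 0.18, each without overlap. After the GC and length correction described below, the log2 fold changes were 0.27 for *HNRNPUL1* and 0.67 for *HNRNPU*, the reverse order. They were nearly equal for *SRSF5* and *SRSF4*, at 0.13 and 0.11. The other pairs without overlap kept their order. *SRSF8* over *SRSF2* stood at -1.26 ± 0.01 and -1.33 ± 0.03 without overlap, and *SRSF3* over *SRSF7* at 1.42 ± 0.04 and 1.497 ± 0.041 with overlapping groups. Ratios of *HNRNPA2B1* and *HNRNPA3* to *HNRNPA1*, of *HNRNPH2* to *HNRNPH1* and of *HNRNPUL2* to *HNRNPU* also overlapped between the groups. With 3 against 3 libraries an exact permutation test (two-sided) cannot go below p = 0.1, and 11 of the 16 pairs compared had that value. Of single protein-coding genes 41.9% did not overlap on the higher side and 28.4% on the lower side. The share among other pairs of genes was not counted, so the number of pairs without overlap is a description only.

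SRSF and HNRNP genes were then set against each other. The median log2 fold change was 0.14 for the SRSF genes (range -0.50 to 0.84) and 0.19 for the HNRNP genes (-0.26 to 1.10), beside 0.12 for the tested protein-coding genes. SRSF minus HNRNP was thus -0.05. Measured in each library of Ad CMV 3xFlag-*Esrrg* against the mean of the controls, it was 0.05 in replicate 2 and -0.16 and -0.17 in replicates 3 and 4. In replicates 3 and 4 the HNRNP medians were 0.31 and 0.30, the SRSF medians 0.15 and 0.13 and the protein-coding medians 0.15 and 0.18. Replicate 2 gave 0.08, 0.13 and 0.06 in that order. The order of the families therefore differed between libraries of one group, and leaving out replicate 2 moved the difference to -0.18 and the numbers called higher to 4 SRSF and 8 HNRNP genes, with 34.1% of the protein-coding genes called higher and 12% lower.

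Fold changes were compared with the GC content of the exons. Across the 32 tested members both correlated with r = 0.57 (Spearman rho 0.46). For the 12 SRSF genes r was 0.80 (rho 0.78) and for the 20 HNRNP genes 0.49 (rho 0.24). This is across genes that share the same 6 libraries, and across the 13746 protein-coding genes r was 0.34. At 45% GC or more, 6 of 10 members were called higher, where 37.2% of the protein-coding genes were. Between 40 and 45% it was 0 of 13 members (11.5% of the protein-coding genes). Below 40% the called members were *HNRNPC* and *HNRNPD*, 2 of 9 (5.17%).

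With the counts of each library corrected for GC content and length by smooth curves, r over the 32 members was 0.09 (rho 0.063). The families differed in this value, with r = 0.63 (rho 0.53) left for the SRSF genes and r = -0.11 (rho -0.20) for the HNRNP genes, and that difference was not tested. Called higher were then *SRSF3*, *SRSF9*, *HNRNPA0*, *HNRNPAB*, *HNRNPC*, *HNRNPD*, *HNRNPK* and *HNRNPU*, while 17.9% of the protein-coding genes were, and 13.2% were lower. *SRSF2*, *HNRNPF*, *HNRNPM* and *HNRNPUL1* were no longer called, with log2 fold changes of 0.56, 0.35, 0.34 and 0.27. *HNRNPAB*, the tested member with the highest GC content (54.5%), went from 1.10 to 0.78, *HNRNPC* from 0.64 to 0.86 and *HNRNPU* from 0.29 to 0.67. The medians became 0.27 for the SRSF genes, 0.26 for the HNRNP genes and 0.04 for the protein-coding genes. *SRSF9*, *HNRNPAB*, *HNRNPC* and *HNRNPD* were thus called both ways.

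**Figure D4:**
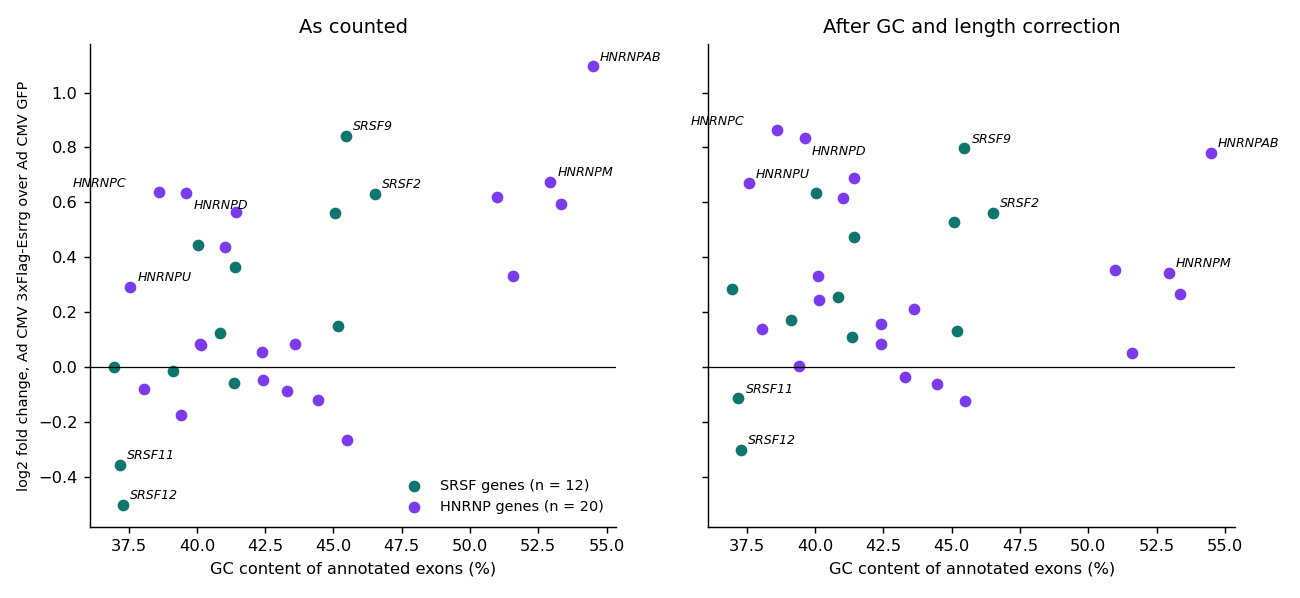
Log2 fold change of each tested member against the GC content of its annotated exons, as counted (left) and after a correction for GC content and length (right). Over all 32 members r is 0.57 as counted and 0.09 after the correction, when the SRSF points still climb with GC content (r = 0.63) and the HNRNP points do not (r = -0.11), with *HNRNPC*, *HNRNPD*, *SRSF9* and *HNRNPAB* near the top.

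The scale of the libraries also bears on the directions. With the library size as the only scaling, the median of all genes shifted by -0.32 and 22.5% of all calls were higher, against 50.7% with TMM factors. On that scale the medians of the SRSF and HNRNP genes were -0.18 and -0.14, beside -0.20 for the protein-coding genes, *HNRNPAB* was still called higher and *SRSF11* and *SRSF12* were called lower, with log2 fold changes of -0.66 and -0.82, beside 13.5% of the protein-coding genes called higher and 25.8% lower. When the fraction of entries off annotated genes entered the fit as a covariate, *HNRNPAB* was the single member called, beside 9.48% of the protein-coding genes called higher and 6.93% lower.

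Other genes of the same machinery were counted from lists. Of 12 tested genes for SR protein kinases, transport and modification, 2 were called higher and 1 lower, with a median log2 fold change of 0.005. The kinases *SRPK1* and *SRPK2*, which phosphorylate SR proteins in the cytoplasm, gave 0.07 and -0.14. Of the nuclear kinases, *CLK4* was lower (-0.77 ± 0.13 SE, edgeR adjusted p = 9.1e-04), *CLK1* gave -0.58 just within the limit and *CLK3* 0.50. With the GC and length correction no gene of this list was lower. Both called higher were arginine methyltransferases, *PRMT1* (1.58 ± 0.18 SE, edgeR adjusted p = 1.1e-04) and *PRMT5* (1.28 ± 0.15 SE, edgeR adjusted p = 1.0e-04), which methylate hnRNPs and Sm proteins. *TNPO1*, the import receptor of *HNRNPA1*, gave -0.58 and *TNPO3*, that of SR proteins, 0.10.

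Of 16 SR-related proteins 2 were called higher, *SCAF1* (1.01) and *RNPS1* (0.72), and 0 lower by edgeR (3 at an unadjusted p below 0.05, 0 called by DESeq2), with a median of 0.06. Among 18 hnRNPs known under other symbols 8 were higher and 0 lower by edgeR (3 at an unadjusted p below 0.05, 0 called by DESeq2), with a median of 0.30. The largest were *PCBP1* (1.15), *KHSRP* (1.02) and *PTBP1* (0.98), the repressor of neuronal exons. *PCBP1* rested on few reads, 82 to 116 counts per library in the controls and 137 to 309 with the receptor. With the GC and length correction 3 of the 18 were called higher. The core spliceosome gave other numbers, with 31 of 47 tested genes higher and 0 lower by edgeR (5 at an unadjusted p below 0.05, 0 called by DESeq2) and a median of 0.80, and 23 higher after the GC and length correction. Its largest were *SF3B5* (1.65), *SNRPD2* (1.35) and *SNRPC* (1.27). With the fraction of entries off annotated genes as a covariate 5 of the 47 were higher and 1 lower, and with the library size as the only scaling 15 were higher and 5 lower.

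In nonsense-mediated decay, the pathway that removes the unproductive transcripts of SR protein genes, 4 of 10 genes were higher, led by *SMG8* (0.89), *SMG5* (0.81) and *UPF1* (0.78), and 1 was lower, the kinase *SMG1* (-0.61), a call that DESeq2 did not make. After the GC and length correction 1 was higher and 0 lower. Splicing regulators of neurons went both ways, with 3 of 16 higher and 3 lower (median -0.27), and 6 lower after that correction. *RBFOX1* (2.705), *SRRM3* (1.18) and *NOVA2* (0.66) were higher, and *SRRM4*, the activator of neuronal microexons, (-0.87) and *MBNL2* (-0.86) were among those lower. *RBFOX1* held only 14 to 19 counts per library in the controls and 105 to 115 with the receptor. These lists were compared with the families by their counts and medians only.

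**Figure D5:**
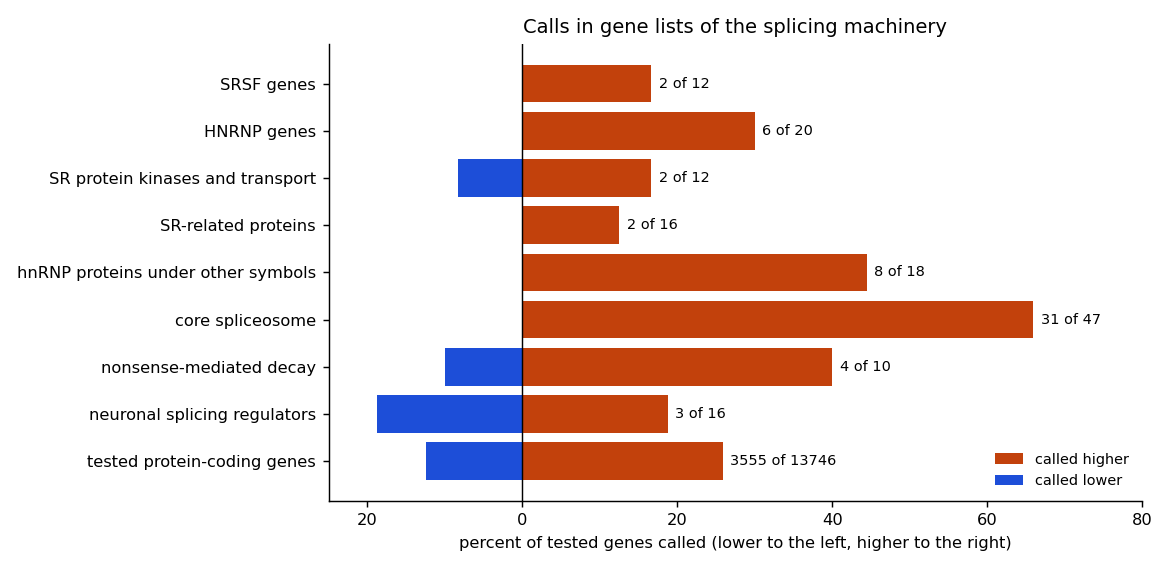
Percent of the tested genes called higher (orange, with the number of genes) and lower (blue) in both families, in 6 lists of the splicing machinery and in all tested protein-coding genes. The SRSF and HNRNP bars (2 of 12 and 6 of 20) lie on either side of that of the protein-coding genes (25.9%), and that of the core spliceosome (31 of 47) is the longest.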

How the data were processed

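The authors deposited raw counts per gene for 6 libraries. The submitters' processing notes name CASAVA, Trim Galore 0.6.7, STAR 2.7.9a, HTSeq 0.11.3, DESeq2 and GRCh38, while the annotation release and strand setting are not given in the sources used here. Identifiers were matched without version to GENCODE release 44 (60419 of 67060 genes, 90.1%), which gave symbols, positions, exon lengths and GC content. The 5 HTSeq summary entries, which name no gene, stayed out of library sizes.

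Counts of genes passing filterByExpr were scaled by TMM factors and compared with the quasi-likelihood test of edgeR 4.0.16 in R 4.3.3 (24500 genes, Benjamini-Hochberg adjustment over all). CPM use TMM factors, with a prior count of 2 where logged. SE was taken as the fitted log2 difference divided by the root of the F statistic. The fits were tested on simulated data. Alternatives were DESeq2 1.42.0, other scalings, filters and fold limits, libraries left out, a replicate block, a GC and length correction (mgcv 1.9.3) and the fraction of entries off annotated genes as covariate. Every member is described. Of each list, called genes with the 3 largest changes per direction and a mean of at least 50 counts were named, and any tested gene of the kinase and transport list. Members, lists and alternatives were chosen with earlier results of these data known. Sequences are from RefSeq (GRCh38.p14).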

Additional observations from a re-analysis of the deposited data

Results flagged for a closer look

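Ambiguous reads, which overlap more than 1 gene and were counted for none, made up 9.84% of the entries of replicate 3 of Ad CMV 3xFlag-*Esrrg* and 9.79% of those of replicate 4, 5.69% of those of replicate 2 and 4.55 to 4.87% in Ad CMV GFP. Reads aligned to several places made up 13.0%, 12.7% and 9.33% in replicates 4, 3 and 2 and 7.16 to 7.41% in Ad CMV GFP. Both are signals outside the gene counts that exceed the level of every control library. They bear on members that share exon bases with other genes, such as *HNRNPA3* (54.8%), *SRSF9* (46.7%), *HNRNPUL2* (44.3%), *SRSF1* (35.1%) and *SRSF2* (27.7%). They also bear on those with copies elsewhere, such as *HNRNPA3* (39.9% of its 31-base words), *HNRNPK* (29.5%), *HNRNPA1* (22.2%) and *HNRNPC* (20.3%). How many of these reads belong to the members was not tested.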

How the results depend on the processing

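Main numbers were 2 SRSF and 6 HNRNP genes called higher, 0 of either lower, and an SRSF minus HNRNP median of -0.05. Library size as the only scaling gave 0 SRSF and 1 HNRNP genes higher and 2 SRSF genes lower. A fit of protein-coding genes only gave 1, 1 and 1, with 5282 of 13746 genes called and 53.3% of these calls higher. The fraction of entries off annotated genes as a covariate gave 0 and 1 higher and a median difference of 0.11. No fold limit gave 5 SRSF genes higher and 2 lower. A 2-fold limit gave 0 SRSF and 1 HNRNP genes higher, and the share of all genes at that limit is not given here. With each library left out in turn, 1 to 4 SRSF genes and 3 to 8 HNRNP genes were higher, the median difference ran from -0.18 to -0.011 and no member was lower. The lowest counts came without replicate 4 of Ad CMV 3xFlag-*Esrrg* (1 and 3) or, for HNRNP, replicate 1 of Ad CMV GFP (3), and the highest without replicate 2 of Ad CMV 3xFlag-*Esrrg*. The number of HNRNP genes lower was 0 under every alternative. Calls over all genes numbered 8351, and 3096 with the covariate. With each library left out they numbered 6738 to 10961, 53.1 to 57.1% of them higher. Library size only gave, of the lists, 5 hnRNPs under other symbols higher and 3 lower, 1 and 2 SR-related proteins, 15 and 5 core spliceosome genes, and 0 and 3 decay genes, and 9 neuronal regulators lower. *ESRRG* stayed between 2.57 and 3.38. Whether equal replicate numbers mark a shared culture or day is not given by the labels. Deviations from the group means correlated at r = 0.075 and -0.000 for the same-numbered pairs and from -0.131 to 0.139 for the others. So few pairs cannot decide it. A replicate block gave 3 SRSF and 7 HNRNP genes higher and a median difference of -0.18, with log2 fold changes of -0.081 for *SRSF10* and 0.13 for *HNRNPH2*. Over all genes this fit called 10435, 45.4% of them higher. Only replicates 3 and 4 occur in both groups, so in this fit they alone set the group difference, and it resembles the fit without replicate 2 of Ad CMV 3xFlag-*Esrrg*.

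Over the members, 401 values kept their direction and call, 37 lost and 23 gained a call, and 51 changed sign, none of them for a called member. DESeq2 and RLE factors each gave 0.064 for *SRSF1*, 0.022 for *SRSF4* and 0.037 for *HNRNPH2*. The GC and length correction gave 0.17, 0.11 and 0.083 for these, 0.14 for *HNRNPA3* and 0.0027 for *HNRNPH3*, and together with the replicate block 0.15 for *SRSF1*, 0.075 for *SRSF4*, 0.27 for *HNRNPH2*, 0.22 for *HNRNPA3* and 0.047 for *HNRNPH3*. Library size only gave -0.16 for *SRSF5*, -0.20 for *SRSF6*, -0.31 for *SRSF10*, -0.28 for *HNRNPA1*, -0.26 for *HNRNPA1L3*, -0.24 for *HNRNPA2B1*, -0.24 for *HNRNPLL* and -0.037 for *HNRNPU*. Protein-coding genes only gave -0.012 for *SRSF6*, -0.13 for *SRSF10*, -0.084 for *HNRNPA1*, -0.056 for *HNRNPA1L3*, -0.053 for *HNRNPA2B1* and -0.054 for *HNRNPLL*. At least 10 counts in every library gave -0.027 for *SRSF10*. The covariate gave 0.16 for *SRSF1*, -0.31 for *HNRNPA1*, 0.18 for *HNRNPA1L2*, -0.51 for *HNRNPA1L3*, -7.5e-05 for *HNRNPA2B1* and -0.029 for *HNRNPU*. With each library left out, signs changed within -0.062 to 0.058 for *SRSF1*, -0.087 to 0.047 for *SRSF4*, -0.024 to 0.061 for *SRSF10*, -0.0056 to 0.36 for *HNRNPA1L3*, -0.12 to 0.074 for *HNRNPA3*, -0.10 to 0.028 for *HNRNPDL* and -0.14 to 0.19 for *HNRNPH2*. The cause of these changes was not tested. Overlapping exons, copied sequence and 3 libraries per group limit what the counts can resolve.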
